A study of Mus musculus with 6 samples.

Results

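Autophagy and lysosome genes were examined in mouse 2-cell embryos, as 39 genes chosen by symbol from the list of the core autophagy machinery and the lysosomal membrane. Each symbol matched 1 identifier in the deposited counts, so that the list makes up 39 of 48967 genes with an identifier. RNA of 3 control and 3 delipidated pools was sequenced, with 3 embryos in each pool. All embryos were wild type (labelled wt) of the strain F1 (C57Bl/10 X CBA/H). They were cultured from zygotes in KSOM without fatty acids between 0.5 and 2.0 dpc, with the time labelled as day 2. The authors state a shorter time between delipidation and sequencing than this labelled span, so the exact time between delipidation and collection is uncertain. For delipidation, zygotes were placed in cytochalasin B and centrifuged, the zona pellucida was opened with a laser and the gathered lipid droplets were aspirated. The controls are labelled as cultured in vitro from zygotes, but the labels attach the delipidation protocol to both groups, so it is not known whether controls were exposed to the drug, centrifuged or opened. The series holds no library from embryos given the drug or centrifugation alone, and if the controls were not handled, the effects of the drug, the centrifugation, the opening of the zona and the loss of lipid cannot be told apart. The embryos were collected together and divided into groups and pools at random, and p-values therefore measure the spread between pools. The comparison asks which transcripts differ at the 2-cell stage once the zygote has lost its lipid droplets.

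Autophagy encloses cytoplasm in a double membrane, the autophagosome, which fuses with the lysosome, where the content is digested. A kinase complex starts the process, a lipid kinase complex marks the membrane, and conjugation enzymes attach ubiquitin-like proteins of the Atg8 family to the growing membrane, to which cargo receptors bind. Autophagy is known to be induced in mouse embryos after fertilization, when maternal proteins are degraded, and it can also deliver lipid droplets to the lysosome.

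The counts assigned to genes were 12164963, 16165958 and 12980787 in control replicates 1 to 3 and 20059460, 16332103 and 14683741 in delipidated replicates 1 to 3. They are sums over exonic parts, the pieces into which the exons of a gene are divided, and a read that reaches into several parts is counted in each of them. Levels are given as CPM, the counts of a gene per 1000000 counts of the library, after scaling with TMM, a normalization for the composition of a library. Levels of different genes are compared as CPM per kb of exonic parts, and again with 150 bases added to each part, as a read can reach into a part from outside it. A gene was called when edgeR's quasi-likelihood test gave a p-value under 0.05 after Benjamini-Hochberg adjustment over all tested genes and its log2 fold change was beyond 1 or under -1. No exact two-sided permutation p-value below 0.1 is possible with 3 libraries against 3.

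The labelled stage was checked against marker genes. All 12 markers of oocytes and zygotes had counts in every library, with sums of 2816, 2066 and 2682 CPM in the control and 2429, 2417 and 3231 CPM in the delipidated libraries, and Dppa3 was the most abundant per length at 1165 CPM per kb. The 8 genes activated at the 2-cell stage were also counted in every library, at 255, 109 and 272 CPM in the control and 168, 238 and 283 CPM in the delipidated libraries together, with Tcstv3 and Zfp352 the most abundant per length at 39.6 and 39.2 CPM per kb. Markers of cells that surround the embryo were low. The 12 markers of cumulus and granulosa cells summed to 5.74, 10.3 and 21.4 CPM in the control and 1.73, 9.64 and 11.9 CPM in the delipidated libraries, with Tnfaip6 the most abundant per kb and Ptx3 and Foxl2 at 0 in all 6 libraries. The 9 leukocyte markers, led by Itgam, summed to between 5.10 and 14.9 CPM per library, the 7 stromal markers, led by Postn, to between 1.93 and 18.7 CPM, and the 6 markers of oviduct epithelium, led by Ovgp1, to between 2.45 and 14.4 CPM with Dynlrb2 at 0.

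Most of the genes had enough counts in 2-cell embryos to be tested, and edgeR called no member. Of the 39 genes, 36 passed edgeR's filter on low counts and 3 did not, namely Gabarapl1, Dram1 and Tfeb. With edgeR, 0 of the 36 members were called higher and 0 were called lower in delipidated embryos, beside 0.0% of the 16020 genes tested in either direction. DESeq2's Wald test, run without the filter on low counts, called 1 member higher, Dram2, and 0 lower, beside 0.0291% of its 30967 genes called higher and 0.129% called lower. An unadjusted p-value under 0.05 was found by edgeR for 1 member with a higher level and for 0 with a lower level, whereas 1.15% of all tested genes passed this limit as higher and 1.74% as lower. The groups did not overlap for 1 tested member that was higher, where the share over all tested genes was 3.81%, and for 0 that were lower, where it was 5.05%. The log2 fold change was positive for 17 members and negative for 19, with a median of -0.01, and the median over all tested genes was -0.00. CPM are shares of a library, so no level per embryo or per cell was measured, and a difference in the total RNA of the pools would not be seen.

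Together the 39 genes gave 3398, 3878 and 3226 CPM in the control and 3651, 3520 and 3102 CPM in the delipidated libraries, or 3501 ± 337 CPM and 3424 ± 287 CPM (SD, n = 3 each). These sums overlap between the groups. The 36 tested members had a median rank of 4856 among the 16020 genes by CPM per kb, and 29 of them were above the median gene. The fold changes of the members had a median standard error of 0.35, smaller than the 0.59 over all tested genes. For 20 members the 95% interval of the log2 fold change lay between -1 and 1, and for the others it reached beyond a 2-fold difference. Sums over parts look more precise than they are, so these intervals set no firm limit, and a missing call does not show equal levels.

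**Figure D1:**
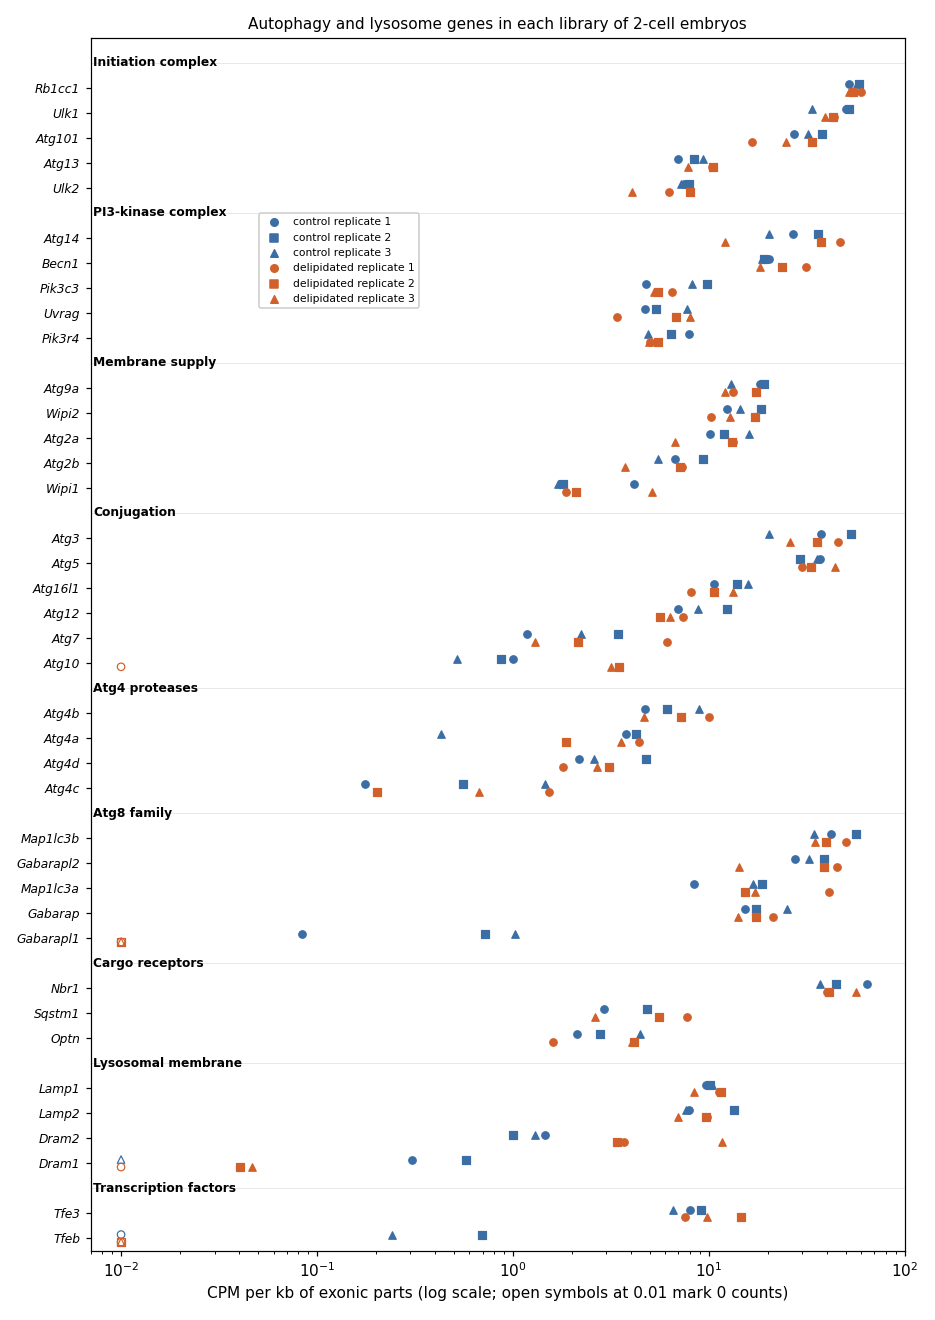
Level of each of the 39 genes in CPM per kb of exonic parts on a log scale, with control libraries in blue and delipidated libraries in orange and 1 symbol for each replicate; open symbols mark 0 counts. Rb1cc1 is highest at a mean of 55.5 CPM per kb, Dram2 is the 1 tested gene without overlap, and Gabarapl1 and Tfeb have no filled orange symbol.

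The initiation complex holds the kinases Ulk1 and Ulk2 with the scaffold Rb1cc1 (FIP200) and the adaptors Atg13 and Atg101. Rb1cc1 had the highest level of all 39 genes at 55.5 CPM per kb, rank 944 of the tested genes. Its level was 764, 853 and 842 CPM in the control and 876, 799 and 761 CPM in the delipidated libraries. These 6 values lay close together and the groups overlapped, with 820 ± 48.2 CPM and 812 ± 58.6 CPM (SD, n = 3 each). For Rb1cc1 the log2 fold change of -0.01 had a standard error of 0.15, the smallest among the members. Ulk2 had the lowest level of the complex at 6.82 CPM per kb. It was found at 44.5, 47.3 and 43.0 CPM in the control and 37.4, 48.0 and 24.1 CPM in the delipidated libraries, where replicate 3 was lowest and replicate 2 above all controls. Between these, Ulk1 was at 43.7, Atg101 at 28.7 and Atg13 at 8.90 CPM per kb, so that the transcript of Ulk1 was more abundant per length than that of its paralog. The order of Ulk1 and Atg101 is uncertain, since with 150 bases added to each part they were at 19.2 and 21.0 CPM per kb. In the complex, log2 fold changes lay between -0.37 for Atg101 and 0.21 for Atg13.

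The lipid kinase complex forms phosphatidylinositol 3-phosphate on the membrane. Its catalytic subunit is encoded by Pik3c3, the regulatory subunit by Pik3r4 and the shared subunit Beclin 1 by Becn1, while Atg14 directs the complex to autophagosomes and Uvrag to endosomes. Atg14 was the most abundant of the 5 genes at 29.9 CPM per kb. Its libraries were spread from 92.6, 124 and 70.1 CPM in the control to 162, 129 and 41.5 CPM in the delipidated embryos. Both the highest and the lowest value were found in delipidated libraries, in replicates 1 and 3. Pik3r4 was at 5.78 CPM per kb, with 76.2, 62.0 and 47.1 CPM in the control and 48.5, 53.3 and 47.6 CPM in the delipidated libraries. Control replicate 3 lay under all delipidated libraries, so the groups overlapped. Becn1 was at 21.8, Pik3c3 at 6.67 and Uvrag at 6.02 CPM per kb. The order of Pik3r4, Pik3c3 and Uvrag is uncertain, since with 150 bases added to each part they were at 3.40, 3.21 and 3.93 CPM per kb. The log2 fold change was 0.33 for Becn1 (standard error 0.24) and -0.40 for Pik3c3 (standard error 0.37), the extremes of the complex. For Becn1 22.2% of the counts lay on parts that overlap Cntd1 on the opposite strand. For Atg14 15.1% lay on parts that overlap a different gene on the opposite strand, and the deposited counts do not separate the strands. Wherever a part with at least 10 counts lay inside a part of the opposite strand, the outer part had no fewer counts, in all 2108, 2529 and 2315 cases of the control and all 2481, 2480 and 2290 cases of the delipidated libraries.

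Membrane for the autophagosome is supplied by the vesicle protein Atg9a, the lipid transfer proteins Atg2a and Atg2b and the phosphoinositide-binding proteins Wipi1 and Wipi2. Atg9a was at 15.5 CPM per kb and stood at 71.6, 75.5 and 50.8 CPM in the control and 52.0, 68.2 and 47.4 CPM in the delipidated libraries. All of its counts came from parts listed jointly with overlapping genes, 35 further parts were left out and 43.6% of its longest transcript is shared with Gm29253, so its level is uncertain. Wipi1 was lowest at 2.79 CPM per kb, with 18.3, 7.98 and 7.53 CPM in the control and 8.20, 9.28 and 22.6 CPM in the delipidated libraries. In each group 1 library, control replicate 1 and delipidated replicate 3, was well above the others. Wipi2 was at 14.2 CPM per kb, and with 150 bases added to each part it was above Atg9a, at 10.7 against 7.93 CPM per kb, while Atg2a and Atg2b were at 11.9 and 6.62 CPM per kb. Of the 5 genes, 4 had a negative log2 fold change, down to -0.24 for Atg2b, and positive for Wipi1 at 0.24 with a standard error of 0.58.

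Among the conjugation enzymes, Atg7 is the activating enzyme, Atg3 transfers Atg8 proteins and Atg10 transfers Atg12, which forms a complex with Atg5 and Atg16l1. Atg3 and Atg5 were the most abundant at 36.4 and 34.8 CPM per kb. The level of Atg3 was 117, 167 and 64.0 CPM in the control and 145, 113 and 82.1 CPM in the delipidated libraries, with the delipidated values inside the control range. Atg5 was more even at 79.8 ± 9.60 CPM in the control and 83.9 ± 17.4 CPM in the delipidated embryos (SD, n = 3 each). The transferase of the Atg12 branch was far lower, since Atg10 was at 1.50 CPM per kb. The counts of Atg10 were 19, 23 and 11 in the control and 0, 91 and 72 in the delipidated libraries, or 1.60, 1.39 and 0.836 CPM and 0, 5.59 and 5.08 CPM. Delipidated replicates 2 and 3 were thus above, and replicate 1 below, all controls. For Atg10 the log2 fold change of 1.47 had a standard error of 1.44 and an interval from -1.67 to 4.62. It was 2.06 (standard error 0.92) without delipidated replicate 1, the library with no counts, where the unadjusted p-value was under 0.05 and the adjusted one 1.00 (0.743 to 1.00 over the 14 fits that tested it), 0.99 without delipidated replicate 2 and 0.73 (standard error 2.22) with a term for the replicate number. Atg16l1 was at 12.1, Atg12 at 7.89 and Atg7 at 2.74 CPM per kb, and Atg12 had the most negative log2 fold change of all 36 tested members at -0.54 with a standard error of 0.40.

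The Atg4 proteases trim Atg8 proteins before conjugation and release them afterwards. Atg4b was the most abundant of the 4 at 6.96 CPM per kb and Atg4c the least at 0.766 CPM per kb. Atg4b reached 462, 838 and 972 counts in the control and 1688, 977 and 548 in the delipidated libraries, or 54.5 ± 17.8 and 60.7 ± 22.3 CPM (SD, n = 3 each). Atg4c was counted only 7, 31 and 64 times in the control and 104, 11 and 32 times in the delipidated libraries, and the groups overlapped for both genes. With its part with most counts in place of the sum, Atg4b had a log2 fold change of 1.53 (standard error 0.59) and groups without overlap, against 0.16 (standard error 0.35) with the sum, and the adjusted p-value from edgeR was 1.00 in both fits and at least 0.941 in every other fit. Atg4c had the largest standard error of the 4 at 1.11. Atg4a was at 3.06 and Atg4d at 2.85 CPM per kb, and the origin of their counts is uncertain. The longest transcript of Atg4a matches other genes, the pseudogene Atg4a-ps among them, over 96.0% of its bases at an identity of at least 98%, and for Atg4d 70.6% of the counts lay on parts that overlap Kri1 on the opposite strand. Without such parts the log2 fold change of Atg4d was 0.69 in place of -0.33, a setting chosen after the data were seen.

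The Atg8 family holds the LC3 genes Map1lc3a and Map1lc3b and the GABARAP genes Gabarap, Gabarapl1 and Gabarapl2. Map1lc3b had the highest level at 43.0 CPM per kb, followed by Gabarapl2 at 32.7, Map1lc3a at 19.6 and Gabarap at 18.4 CPM per kb. The level of Map1lc3b was 317, 425 and 259 CPM in the control and 379, 297 and 261 CPM in the delipidated libraries. All delipidated values of Map1lc3b lay inside the control range, and its log2 fold change of -0.09 had a standard error of 0.23. Gabarap was at 28.2, 31.9 and 46.2 CPM in the control and 39.4, 32.2 and 25.9 CPM in the delipidated libraries. For Map1lc3a, delipidated replicate 1 stood apart at 48.2 CPM beside 18.1 and 20.4 CPM in the other delipidated and 9.87, 22.2 and 19.9 CPM in the control libraries, and its log2 fold change of 0.74 had a standard error of 0.49. Map1lc3b and Gabarapl2 share 11.0% and 20.9% of their longest transcripts with near-identical copies elsewhere, for which counts of unique reads are uncertain.

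Gabarapl1 was the exception in the family. Its counts were 2, 24 and 27 in the control and 0 in all 3 delipidated libraries, or 0.169, 1.45 and 2.05 CPM in the control, and it did not pass the filter. The control counts lay on 2, 3 and 4 of its 13 exonic parts, with at most 8 counts on a part, and 39.6% of them were on parts that overlap 1700101I11Rik on the opposite strand. A count of 0 allows up to 3 counts, which is 0.148, 0.184 and 0.212 CPM in delipidated replicates 1 to 3, and this limit covers counting error alone. Control replicate 1 lay under the limits of delipidated replicates 2 and 3, while control replicates 2 and 3 lay above all 3 limits. With up to 3 counts allowed over the whole delipidated group, its level was at least 21.6-fold lower if each count is a separate read, and at least 6.51-fold lower if only the highest part of each library, 16 counts in all, is taken. Neither bound covers the spread between pools. Without the filter, the groups did not overlap for Gabarapl1 and Dram2, or 5.13% of the members, beside 6.33% of all genes in that fit. How many of all genes had no counts in any delipidated library was not counted. Every delipidated library also had fewer genes with counts than any control, and a link to these zeros was not tested.

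Cargo receptors bind both ubiquitinated cargo and Atg8 proteins. Nbr1 was the most abundant at 47.2 CPM per kb and rank 1152, whereas Sqstm1 (p62) was at 4.76 and Optn at 3.19 CPM per kb. Nbr1 was measured at 443, 307 and 255 CPM in the control and 276, 281 and 385 CPM in the delipidated libraries, so that all delipidated values lay inside the control range. Optn was at 7.93, 10.4 and 16.6 CPM in the control and 6.02, 15.5 and 15.2 CPM in the delipidated libraries, with delipidated replicate 1 lowest. Sqstm1, which is degraded with its cargo at the protein level, was at 14.1 ± 3.76 CPM in the control and 17.8 ± 8.61 CPM in the delipidated embryos (SD, n = 3 each). Its log2 fold change of 0.34 was smaller than its standard error of 0.49.

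At the lysosomal membrane, Lamp1 and Lamp2 encode its major glycoproteins, and Dram1 and Dram2 encode multispanning proteins related to each other that have been linked to autophagy. Lamp1 was at 10.2 CPM per kb, with 25.9, 27.0 and 27.9 CPM in the control and 30.1, 31.0 and 22.4 CPM in the delipidated libraries. The control libraries lay close together and were enclosed by the delipidated ones, but 31.4% of the counts of Lamp1 lay on parts that overlap Grtp1. With 150 bases added to each part Lamp1 was below Lamp2, at 6.33 against 7.48 CPM per kb. Lamp2 was at 9.25 CPM per kb and its log2 fold change was -0.13, with 0.29 as standard error. Dram1 was nearly absent, counted 11, 29 and 0 times in the control and 0, 2 and 2 times in the delipidated libraries, and it did not pass the filter.

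Dram2 was the only tested member whose groups did not overlap and the only one with an unadjusted p-value under 0.05 in edgeR. The gene, listed as ENSMUSG00000027900, lies on the forward strand of GRCm38 at chr3:106547798-106575890 and is divided into 26 exonic parts. Its counts were 65, 62 and 64 in the control and 281, 207 and 618 in the delipidated libraries. In CPM these were 5.48, 3.75 and 4.87 in the control and 13.9, 12.7 and 43.6 in the delipidated libraries, or 4.70 ± 0.880 and 23.4 ± 17.5 CPM (SD, n = 3 each). All 3 delipidated libraries were above all 3 controls, and replicate 3 was far above the other 2. Its log2 fold change of 2.32 had a standard error of 0.58 and a 95% interval from 1.04 to 3.59. Dram2 took place 12 among the 16020 genes in order of the p-value, and its adjusted p-value from edgeR was 1.00. Without the filter on low counts edgeR gave an adjusted p-value of 0.0527 and DESeq2's Wald test one of 0.0220, and the values of the other fits were spread between 0.863 and 1.00. Without delipidated replicate 3 the log2 fold change of 1.50 had a standard error of 0.62.

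The counts of Dram2 were unevenly placed on the gene. Of its 26 parts, 18, 11 and 10 had counts in the control and 10, 12 and 21 in the delipidated libraries. The highest count on a single part was 8, 8 and 10 in the control and 49, 32 and 74 in the delipidated libraries, so the sum over parts was between 5.74 and 8.35 times the count of the highest part. Neighbouring parts often held the same number. In delipidated replicate 3, parts 3 to 8 held 33 counts each, and in delipidated replicate 1, parts 21 to 23 held 39 counts each. The highest part also differed, being part 24 in delipidated replicate 1, parts 23 to 25 alike in replicate 2 and part 13 in replicate 3. On part 25, the longest at 1271 bases, the level was 0.675, 0.363 and 0 CPM in the control and 0.543, 1.97 and 1.13 CPM in the delipidated libraries, and the groups overlapped. In CPM the groups did not overlap on 6 of the 26 parts, with the delipidated libraries higher on each, and overlapped on the others, 3 of them without counts. These 6 parts need not be separate observations. In delipidated replicate 1, parts 12, 13 and 17 held 21 counts each, and in replicate 2, parts 12 and 13 held only 4 each. Dram2 was followed because its groups did not overlap, and the share over all exonic parts was not computed. The count of parts is therefore given no weight. When each gene was represented by its part with most counts, Dram2 had 2.17 as log2 fold change and 1.32 as standard error, and the unadjusted p-value was no longer under 0.05.

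**Figure D2:**
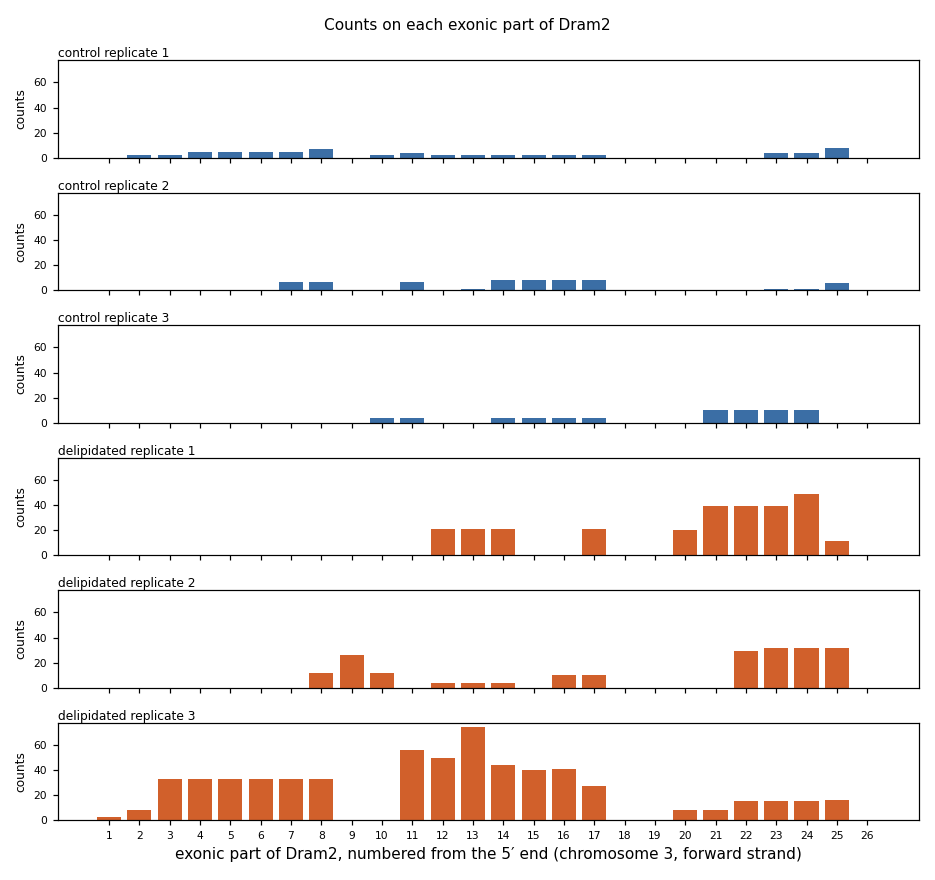
Counts on each of the 26 exonic parts of Dram2, numbered along the gene from its start, with 1 panel for each of the 6 libraries. The highest bar of a control library reaches 8, 8 and 10 counts, that of a delipidated library 49, 32 and 74 counts, on different parts of the gene.

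Tfeb and Tfe3 encode related transcription factors that activate lysosomal and autophagy genes. Tfe3 was present at 9.28 CPM per kb, with 74.2, 84.6 and 61.1 CPM in the control and 70.3, 134 and 90.9 CPM in the delipidated libraries. Delipidated replicates 2 and 3 were above and replicate 1 within the control range, and the log2 fold change of 0.43 had a standard error of 0.29. It was 0.14 without delipidated replicate 2 and -0.17 with the part with most counts in place of the sum. Tfeb was counted 0, 65 and 18 times in the control and 0 times in every delipidated library and did not pass the filter. Its control counts were placed on 9 parts in replicate 2 and 3 parts in replicate 3, out of 35. Since 1 control library also had no counts, the groups overlapped.

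**Figure D3:**
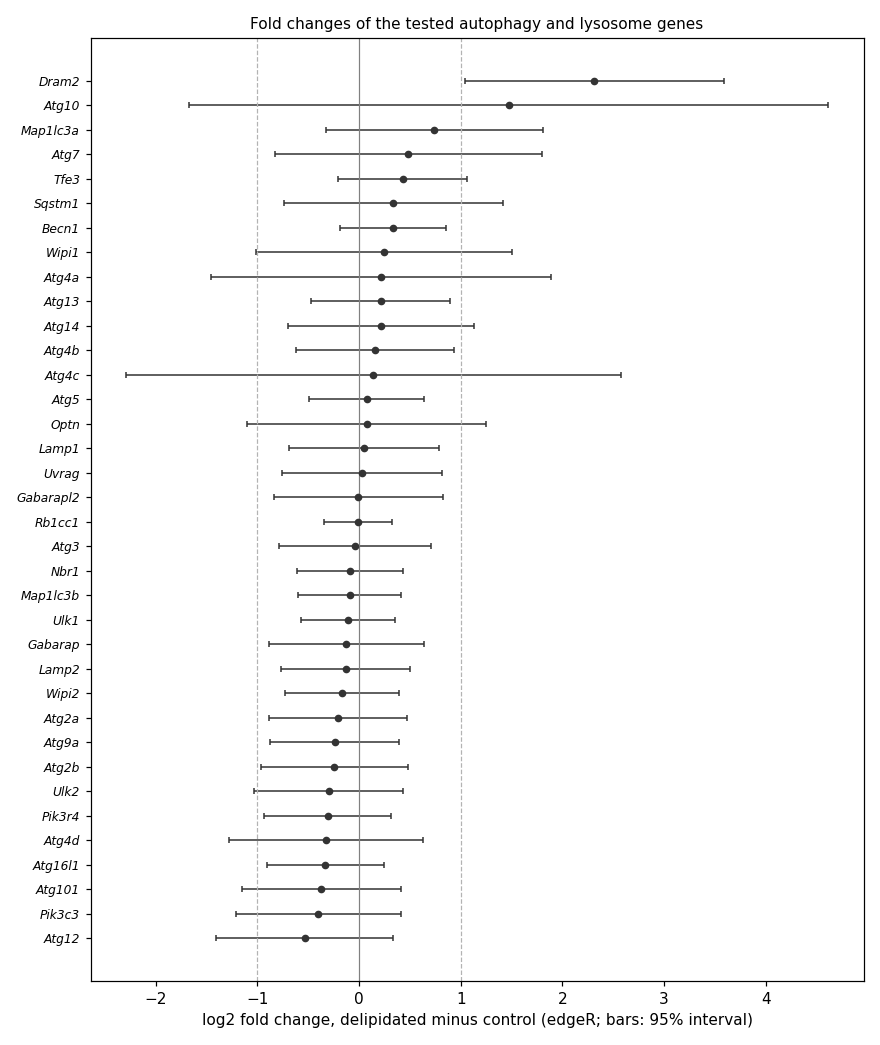
Log2 fold change of each of the 36 tested members, delipidated minus control, from edgeR, with bars for the 95% interval and dashed lines at -1 and 1. The interval of Dram2 runs from 1.04 to 3.59 and that of every other member includes 0, with the widest for Atg10 and Atg4c.

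The members also differed in which library was highest or lowest. Control replicate 2 was the highest of the 6 libraries for 11 of the 36 tested members, or 30.6%, beside 17.1% of all tested genes, and delipidated replicate 1 was the highest for 10, or 27.8%, beside 18.2%. Delipidated replicate 3 was the lowest for 13 members, or 36.1%, beside 17.8% of all tested genes. Genes with counts numbered 22855, 22437 and 20582 in the control and 17091, 19408 and 20158 in the delipidated libraries. Every delipidated library thus had fewer than any control. Whether this is linked to the 0 counts of Gabarapl1, Tfeb and the protease gene Ctsf in delipidated libraries was not tested. Delipidated replicate 1 had the largest total count and the fewest genes with counts, and it was the library in which Becn1, Atg7 and Map1lc3a were highest. Without delipidated replicate 1 the median log2 fold change of the members was -0.15, and without control replicate 2 it was 0.03, so its sign followed the libraries included.

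Other genes of the pathway were taken as lists. Of 35 further autophagy genes 33 were tested, and edgeR called 0 higher and 0 lower, with 17 positive and 16 negative log2 fold changes and a median of 0.01. The most abundant was Rab7, which encodes a small GTPase of late endosomes and lysosomes, at 192 CPM per kb. The 1 gene of this list with an unadjusted p-value under 0.05 was Wdr45, which encodes the phosphoinositide-binding protein WIPI4. It makes up 3.03% of the tested list, against 1.15% of all tested genes that passed this limit as higher. Wdr45 was at 23.7, 48.8 and 35.9 CPM in the control and 60.2, 96.4 and 49.3 CPM in the delipidated libraries, with delipidated replicate 3 just above control replicate 2. The fold change in log2 was 0.92, the standard error 0.36 and edgeR's adjusted p-value 1.00. The unadjusted p-value was not under 0.05 in 4 of the 14 other fits that tested it, which were the fits without control replicate 1, control replicate 3 or delipidated replicate 2, with log2 fold changes of 0.70, 0.91 and 0.60, and the fit with the part with most counts (0.89, standard error 0.66). All counts of Wdr45 came from parts listed jointly with overlapping genes and 44 further parts were left out, so its level is uncertain, and it could not be tested without such parts. In this list the groups did not overlap for 1 gene that was higher, or 3.03% against 3.81% of all tested genes, and 2 that were lower, or 6.06% against 5.05%.

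The vacuolar ATPase acidifies the lysosome. Of its 24 genes 20 were tested, and edgeR called 0 in either direction, with 13 positive and 7 negative log2 fold changes and a median of 0.10. Atp6v1d had the highest level at 42.2 CPM per kb. With an unadjusted p-value under 0.05 there were 2 genes, both higher in delipidated embryos, or 10% against 1.15% of all tested genes as higher. Atp6v1e1, a subunit of the stalk, was at 30.1, 43.2 and 33.7 CPM in the control and 81.1, 71.4 and 61.7 CPM in the delipidated libraries. The difference between the group means of Atp6v1e1, 35.7 ± 6.78 and 71.4 ± 9.71 CPM (SD, n = 3 each), was larger than the spread within either group, and its log2 fold change of 1.00 had a standard error of 0.29. Atp6v0b, which belongs to the ring in the membrane, was at 7.17, 8.46 and 13.8 CPM in the control and 14.1, 25.6 and 24.8 CPM in the delipidated libraries. Its groups were separated by a narrow margin, and its log2 fold change of 1.13 had a standard error of 0.47. With the part with most counts neither gene had an unadjusted p-value under 0.05, at log2 fold changes of 0.68 (standard error 0.42) for Atp6v1e1 and 1.56 (standard error 1.03) for Atp6v0b. For Atp6v0b this also held without control replicate 1, control replicate 2, delipidated replicate 2 or delipidated replicate 3. Both adjusted p-values from edgeR were 1.00, and the groups did not overlap for 3 of the 20 genes, all of them higher, or 15% against 3.81% of all tested genes. Over both directions the groups did not overlap for 8.86% of all tested genes, and 2.89% had an unadjusted p-value under 0.05 in edgeR. The shares of this list rest on 3 and 2 genes, and no test over the list was made.

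For the lysosomal enzymes, transporters and membrane proteins other than the members, 58 of 68 genes were tested and edgeR called 0 in either direction. The log2 fold change was positive for 24 and negative for 34 genes, with a median of -0.13, which was the same with Ctsf at the bound set by its 0 counts. The protease gene Ctsl was the most abundant at 142 CPM per kb. The unadjusted p-value was under 0.05 for 3 genes, all lower in delipidated embryos, or 5.17%, Ctsf among them, against 1.74% of all tested genes. The protease gene Ctsf was counted 33, 18 and 12 times in the control and 0 times in every delipidated library. It passed the filter only through the control group, so its direction was set by the filter and its p-value is given no weight. The shares of this list that count Ctsf hold a gene of fixed direction, and no excess is read from them. Idua, which encodes an enzyme that degrades glycosaminoglycans, was at 12.5, 17.3 and 38.4 CPM in the control and 4.69, 3.81 and 11.0 CPM in the delipidated libraries. Sumf1, which encodes the enzyme that activates sulfatases, was at 13.1, 26.8 and 10.7 CPM in the control and 5.83, 6.39 and 9.39 CPM in the delipidated libraries. The libraries of the groups did not overlap for any of the 3 genes. Idua had a log2 fold change of -1.81 with 0.59 as standard error and Sumf1 one of -1.23 with 0.52, and edgeR's adjusted p-value was 1.00 for all 3 genes. With the part with most counts neither Idua (-0.47, standard error 0.64) nor Sumf1 (-0.40, standard error 0.52) had an unadjusted p-value under 0.05. The same held for Idua without control replicate 3 and for Sumf1 with a term for the replicate number and without control replicate 2, delipidated replicate 1 or delipidated replicate 2. Over the list the groups did not overlap for 1 gene that was higher, or 1.72% against 3.81% of all tested genes, and 6 that were lower, Ctsf among them, or 10.3% against 5.05%.

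The promoters were searched for the motif CACGTG, to which factors of the Tfeb type bind, and for TCACGTGA, the centre of the element described for them. Both motifs read the same on either strand, and each match to the longer one also matches the shorter one. Windows of 300 bases around the starts listed by RefSeq on GRCm38.p6 were found for 33 of the 39 members, and for 5 of these no window lay within 1000 bases of the gene start in GENCODE. CACGTG was present for 5 members, Atg3, Atg5, Atg7, Atg14 and Lamp1, or 15.2%, and for 8.09% of the 27025 genes with a window. TCACGTGA was present for 1 member, Atg3, or 3.03%, against 1.12% of all genes. The start used for Atg7 lies 27999 bases and that for Atg14 2215 bases inside the gene as annotated by GENCODE, which leaves 3 members with CACGTG near that start. The log2 fold changes of these 5 members lay between -0.04 for Atg3 and 0.49 for Atg7. Among the lysosomal enzymes, transporters and membrane proteins, 17 of 54 genes with a window held CACGTG, or 31.5%, and 9 held TCACGTGA, or 16.7%. For the vacuolar ATPase these were 4 and 3 of 18 genes, and for the further autophagy genes 4 and 1 of 30. A match describes the letters of the window only and is not a measured binding site.
The windows of Lamp1, at chr8:13158911-13159210 on the forward strand, and of Atg3, at chr16:45158579-45158878 on the forward strand, are shown because Lamp1 has 4 matches to CACGTG and Atg3 alone has the longer motif, with the matches in capitals.
Lamp1: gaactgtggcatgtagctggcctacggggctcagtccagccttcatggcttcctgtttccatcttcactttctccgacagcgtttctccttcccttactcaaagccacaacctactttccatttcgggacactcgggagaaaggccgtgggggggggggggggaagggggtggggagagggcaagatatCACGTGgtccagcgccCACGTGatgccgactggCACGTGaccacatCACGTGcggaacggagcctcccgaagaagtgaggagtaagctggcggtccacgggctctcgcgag
Atg3: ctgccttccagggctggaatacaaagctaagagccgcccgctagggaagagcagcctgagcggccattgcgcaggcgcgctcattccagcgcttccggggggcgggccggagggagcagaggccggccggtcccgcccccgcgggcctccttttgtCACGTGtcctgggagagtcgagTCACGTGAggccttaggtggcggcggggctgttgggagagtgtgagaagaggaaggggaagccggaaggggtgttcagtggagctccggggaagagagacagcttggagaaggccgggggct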

How the data were processed

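Libraries were prepared with a stranded total RNA kit after removal of rRNA. The authors deposited raw counts per exonic part, made according to their processing notes with bcl2fastq 2.20, Trimmomatic 0.36, STAR 2.5.2b and featureCounts on mm10. The 425461 parts were summed per Ensembl gene. Of 33309 parts listed under joined identifiers, 27968 overlapped exons of 1 of the genes alone in GENCODE vM21 and were assigned to it; the rest, 2.49% to 2.57% of a library's counts, was dropped. Reads counted on several parts make the sums look more precise than they are, and genes on opposite strands of the same bases share counts, since the deposited counts ignore strand although the kit keeps it: parts on opposite strands with the same ends had equal counts in every library.

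The comparison used edgeR 4.0.16 (R 4.3.3) over 16020 genes: filterByExpr (minimum count 10, minimum total 15), TMM, the quasi-likelihood test without covariates and Benjamini-Hochberg adjustment. Intervals of 95% use the degrees of freedom of the fit and the standard error, taken as the fold change divided by the square root of F. The script was tested on simulated counts. Alternatives were DESeq2 1.42.0, its size factors in edgeR, other filters, joined parts left out, the part with most counts, library sizes without mitochondrial and rRNA genes, no fold change threshold, a replicate block, each library left out and 150 bases added to each part; leaving out parts over exons of the opposite strand was chosen after the data were seen. Near-identical copies were searched with blastn 2.17.0 at an identity of at least 98% over at least 150 bases, and tables were made with Python 3.11.15 and pandas 2.3.3. All 39 members are named. Values per library are given for members called, with an unadjusted p-value under 0.05 or without overlap, for the highest and lowest per length of each role and for those removed by the filter; of the other lists, for genes with such a p-value, with the level of the most abundant. Other values, such as those of Map1lc3a, were added after they were seen. The members and lists were chosen with earlier results of these data known.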

Additional observations from a re-analysis of the deposited data

How the results depend on the processing

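With edgeR, 0 members were called higher and 0 lower in all fits, including those with a replicate block, without a fold change threshold and with each library left out (0 to 0). Over all genes edgeR called 0 higher and 0 lower, beside 463 genes with an unadjusted p-value under 0.05, but 5 higher and 25 lower without a filter on low counts. DESeq2's Wald test, also without that filter, called 9 genes higher and 40 lower, and of the members 1, Dram2, higher. The other genes of the pathway had 0 calls in each of the 16 fits and 0 without a fold change threshold; except for the first fit, these were chosen after the data were seen. The median log2 fold change of the members was -0.04 with the replicate block, although same-numbered libraries did not deviate together (correlations of -0.084, 0.07 and 0.043), and -0.15 to 0.03 with each library left out.

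Members with an unadjusted p-value under 0.05 numbered 3 with DESeq2 and 3 without a filter, where Gabarapl1 and Tfeb entered the test, and 1 to 4 with each library left out. The share over all genes moved as well, from 2.89% to 4.33% with DESeq2 and 3.92% without a filter. It was between 2.2% and 5.61% with a library left out. With DESeq2 or without a filter the 3 members were out of 39, a larger share than over all genes. Gabarapl1 and Tfeb, at 0 counts in every delipidated library, were 2 of these 3. The count was 3 of 38 members without control replicate 1 (beside 3.59% of all genes) and 3 of 39 without delipidated replicate 2 (3.81%). It was 4 of 39 without delipidated replicate 1 (4.1%), where Atg10 was added, or delipidated replicate 3 (5.61%), where Becn1 was added. Becn1 had a log2 fold change of 0.50 (standard error 0.23) in that fit. These shares of members were above those of all genes, but Gabarapl1 and Tfeb were counted in each of these fits. With a library left out, both genes passed the filter only through the control group, so their direction was set by the filter. With DESeq2 and without a filter no such filter applied, and both genes had counts in the control group alone. Their p-values are given no weight in any of these fits. With the part with most counts, Atg4b took the place of Dram2, at a log2 fold change of 1.53. Members without overlap numbered 2 with DESeq2 (5.13% of the members, beside 6.38% of all genes in that fit), 2 without a filter (5.13% beside 6.33%), 4 with the part with most counts (11.4% beside 8.9%) and 1 to 7 with each library left out, where fewer libraries have to be separated. The count was 7 without control replicate 1 (18.4% beside 19.4%) or delipidated replicate 3 (17.9% beside 21.1%). It was 5 without control replicate 3 (13.5% beside 15.8%) or delipidated replicate 1 (12.8% beside 19.3%). Without delipidated replicate 2 it was 4 (10.3% beside 17.9%) and without control replicate 2 it was 1 (2.78% beside 18.2%). With a library left out the share of members was thus never above that of all genes. Gabarapl1 was counted in all these fits except those without control replicate 2 or 3, and Tfeb in the fit without control replicate 1. Both genes were tested there only through the control group, so this comparison is given no weight. Of the 36 tested members, 27 changed the sign of the fold change in at least 1 of 16 fits, 15 of them with the part with most counts, and no such value was called; the cause was not tested. With 150 bases added to each part, 28 members were above the median gene, against 29.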
